A study of Oryza sativa with 16 samples.

Results

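Desiccation was set against control in wild-type (WT) rice by comparing where OsHOX24 was found on the chromosomes in 4 libraries, of 16 samples in the series. OsHOX24 is a transcription factor, and the assay was ChIP-seq, which sequences the DNA pulled down with an antibody against the protein. One group of seedlings were WT plants, 3 weeks old, left without water for 3 h (WT desiccation, 2 libraries), and the others were WT plants of that age kept in water for 3 h (WT control, 2 libraries). Libraries of H49, a transgenic line of the same species that over-expresses OsHOX24, served as samples outside the comparison, with 2 libraries from desiccated and 2 from control seedlings. The H49 seedlings were also 3 weeks old, and their treatments also lasted 3 h. Both WT groups carry the endogenous OsHOX24 gene, so neither is a background without the antigen. The labels do not give the cultivar, the promoter of the transgene, or whether the 2 libraries of a group came from separate plants.

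The data were lists of summits, the single positions at which each peak was highest, on chromosomes 1 to 12. The 4 WT lists held 17373 summits of 29684 in all 8 lists. Summits lying up to 200 bp apart were joined over the 4 WT lists into 13119 regions, and a region counted as called in a library when it held one of that library's summits. The regions on which the comparison turns were those with calls in the 2 desiccation libraries and none in control (desiccation-only), those with calls in the 2 control libraries and none under desiccation (control-only), and those with calls in all 4. They numbered 38, 552 and 373, which is 0.29%, 4.21% and 2.84% of the 13119 regions. The sets are defined by the calls, so these counts are a description and were not tested. Regions are named by chromosome, start and end in the coordinates of the deposited lists (MSU version 7 of the rice genome), from 100 bp before the first to 100 bp after the last summit. No gene positions of that build were used here, so no region is assigned to a gene, an exon or a promoter.

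OsHOX24 belongs to subfamily I of the homeodomain-leucine zipper proteins, a family found in plants. The homeodomain of these proteins contacts DNA and the adjoining leucine zipper joins a pair of them, so that they bind short AT-rich sites as dimers. Members of subfamily I are known for roles in responses to water deficit and abscisic acid, and OsHOX24 transcripts accumulate in rice under drought.

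The WT desiccation lists held 2690 and 2172 summits, and the WT control lists 9345 and 3166. Both desiccation lists were shorter than both control lists, although WT control replicate 2 was closer to the desiccation lists than to the other control library. On the log2 scale the lengths differed by −1.17, desiccation minus control (exact two-sided permutation p = 0.333, n = 2 each), and 0.333 is the smallest p that this test can give with 2 libraries against 2, so it could not pass a threshold of 0.05. Without WT control replicate 1 the difference was −0.39. Each summit carries a −log10 p-value from the authors' peak caller. Its median was 6.10 and 20.1 in the WT desiccation lists, and 7.11 and 7.04 in the WT control lists. WT desiccation replicate 2 stood apart, with an upper quartile of 38.5 against 8.23 to 11.6 in the other 3 lists. These values grow with read number and are not comparable between libraries, and read depth is unknown. Within a list they were used as a percentile, from 0 for its weakest to 100 for its strongest summit.

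Most regions were called in 1 library. They numbered 10214 (77.9%), of which 7057 were called in WT control replicate 1 alone. Among regions called in exactly 2 libraries, those of one treatment were not the most frequent kind. Desiccation replicate 1 and control replicate 1 alone shared 670 regions, and desiccation replicate 2 and control replicate 2 alone shared 429. These numbers stand beside the 38 desiccation-only and 552 control-only regions. The 2 remaining combinations, desiccation replicate 1 with control replicate 2 and desiccation replicate 2 with control replicate 1, gave 124 and 134 regions. Libraries with the same replicate number thus shared more regions across the treatments than libraries with different numbers did. The labels do not say what a replicate number stands for.

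Cutting every list to its 2172 strongest summits, the length of the shortest, left 57 desiccation-only, 185 control-only and 319 regions called in all 4 libraries. These were 0.974%, 3.16% and 5.45% of the 5854 regions that the shortened lists formed. The weakest summit kept had a −log10 p of 4.48 and 3.00 in the desiccation lists, and 10.9 and 5.72 in the control lists. Control-only regions still outnumbered desiccation-only regions, at 185 against 57, when no list was longer than another. Regions called in both control libraries and 1 desiccation library numbered 116 and 147. Those called in both desiccation libraries and 1 control library numbered 66 and 43. The difference between the sets, and the part in it of agreement between the 2 libraries of a treatment, were not tested. Of the 57, 31 were desiccation-only in the full lists as well, and the other 26 had a weaker control summit in the full lists, 19 of them in WT control replicate 1 alone. Of the 185 control-only regions, 171 were control-only in the full lists, which is 92.4% of them and 31.0% of the 552. The regions shared by WT desiccation replicate 2 and WT control replicate 2 alone became the most frequent kind called in more than 1 library, at 441.

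**Figure D1:**
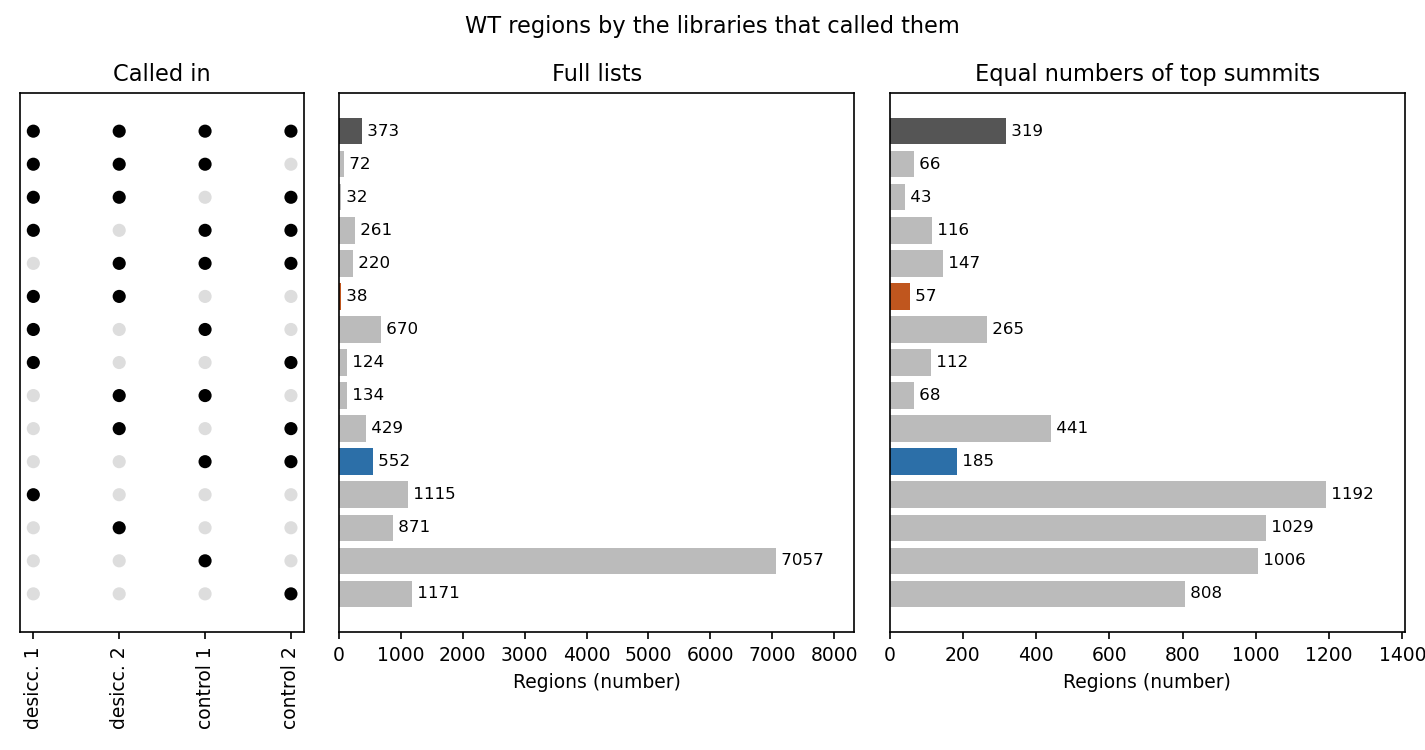
Number of WT regions (horizontal axes) for each combination of the 4 WT libraries that called them (filled dots; desicc. 1 is WT desiccation replicate 1), with the full lists in the middle and with the 2172 strongest summits of each list on the right. Desiccation-only regions (orange) numbered 38 and 57, control-only regions (blue) 552 and 185, and regions called in all 4 libraries (dark grey) 373 and 319.

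The desiccation-only regions were few, and their values were intermediate in one desiccation list and low by rank in the other. Their median −log10 p was 6.58 in WT desiccation replicate 1 and 6.91 in replicate 2, the 57.7th and 25.3rd percentiles of those lists. In the top 25% of the list lay 13 of the 38 (34.2%) in replicate 1 and 4 (10.5%) in replicate 2. Only 2 of the 38 lay above the 50th percentile in both desiccation lists, against 145 of the 552 control-only regions in both control lists and 203 of the 373 common regions in all 4. Each of the 38 held 1 summit per calling library, a median of 54 bp apart. By chromosome, 7 of the 38 (18.4%) lay on chromosome 3, which held 15.8% of all WT regions, 6 each (15.8%) on chromosomes 2 and 5, which held 13% and 7.68%, and 0 on chromosome 10, which held 5.66%.

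The strongest desiccation-only region was Chr12:20558384-20558633. It had a −log10 p of 17.2 and 83.8 in the WT desiccation libraries, and no summit in WT control or in any of the 4 H49 libraries. The nearest control summit lay 505 bp away, in a region that is itself the strongest of the control-only set. That control-only region, Chr12:20557693-20558079, had no summit in either desiccation library, and 41.2 and 112 in the WT control libraries. In H49 it was called in every library, at 37.2 and 77.8 under desiccation and 29.7 and 99.8 in control. The strongest region of each set thus lay side by side on chromosome 12, and at a merging distance of 1000 bp they would be 1 region called under both treatments. Both lie in a stretch of 300 kb, Chr12:20500001-20800000, chosen after its values were seen, in which summits were dense. It held 68 and 14 summits of the WT desiccation lists, and 18 and 11 of the WT control lists. By number, not scaled to the longer control lists, only desiccation replicate 1 exceeded both controls. In H49 the stretch held 27 and 14 summits under desiccation, and 30 and 14 in control.

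The second of the set, Chr12:20704856-20705080, lay in the same stretch. It had 15.1 and 80.6 in the WT desiccation libraries and its nearest WT control summit lay 2516 bp away. In H49 it was called in desiccation replicate 1 (43.2) and in both control libraries (37.5 and 94.1), so its absence from WT control was not shared by H49 control. The other 10 regions named here reached only the 32.7th to 43.8th percentile in the list where they ranked lower. Chr3:10162434-10162689 was called in all 4 H49 libraries, at 9.27 and 8.05 under desiccation and 15.2 and 18.1 in control. Chr6:26385847-26386048 was called in H49 control replicate 2 alone (19.6). Chr7:27896621-27896821 was called in H49 desiccation replicate 1 alone (9.09), and Chr5:1656447-1656710 in H49 desiccation replicate 2 alone (4.49). Chr8:23622639-23622919 had 6.41 and 14.3 in the WT desiccation libraries, with the nearest WT control summit 2210 bp away. H49 called it under desiccation at 10.4 and 9.13, and not in control. Chr5:6781961-6782176 showed the same pattern, with 6.70 and 9.03 in WT desiccation, a nearest WT control summit at 4000 bp, 7.03 and 7.74 in H49 desiccation and no H49 control summit. Chr3:31604118-31604440, which ranked low in replicate 2, was called at 9.52 and 4.55 in WT desiccation and at 9.85 and 3.27 in H49 desiccation, again with no H49 control summit, and was singled out after its values were seen. Its nearest WT control summit lay closer, 537 bp away. These 3 of the 38 regions were the only ones found in all 4 desiccation libraries and in no control library of either genotype, which is 7.89%. Over all WT regions 171 of 13119 (1.30%) had a summit in both H49 desiccation libraries and in no H49 control library.

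On chromosome 5, 4 of the 38 regions lay within the 10 kb from Chr5:24320001 to 24330000. They were Chr5:24323682-24323948, with 8.66 and 11.7 in the WT desiccation libraries, Chr5:24326205-24326415 (5.43 and 11.6), Chr5:24327681-24327953 (6.27 and 9.79) and Chr5:24328524-24328907 (6.45 and 10.6). None of them held an H49 summit. Their nearest WT control summits lay 292, 471, 995 and 1838 bp away, in that order. The same 10 kb held 6 and 8 summits of the WT desiccation lists, and 2 and 3 of the WT control lists, although the control lists are longer. In H49 it held 1 and 5 summits under desiccation, and 2 and 2 in control, so H49 desiccation replicate 1 did not show the excess. Chosen after its values were seen, this was 1 of only 3 bins of 10 kb in which each WT desiccation list had at least 3 summits and more than each WT control list, out of 37 bins with at least 3 summits in both desiccation lists. In the other direction, 83 of 155 bins with at least 3 summits in both WT control lists had more in each control than in each desiccation list. With the 2172 strongest summits of each list the numbers were close, at 10 of 35 such bins with more under desiccation and 12 of 50 with more in control. The 3 control bins with the widest gap in the full lists held 1 and 1 summits each in WT desiccation. Chr3:12220001-12230000 held 9 and 6 in WT control, with 1 and 7 in H49 desiccation and 7 and 2 in H49 control. Chr4:29530001-29540000 held 7 and 6 in WT control, with 1 and 4 in H49 desiccation and 2 and 4 in H49 control. Chr7:28850001-28860000 held 6 and 8 in WT control, with 2 and 0 in H49 desiccation and 6 and 3 in H49 control. The H49 treatments thus overlapped in the first pair of these bins and did not in the bin on chromosome 7.

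Control-only regions were more numerous, and their values were intermediate in one control list and low in the other. Their median −log10 p was 9.54 in WT control replicate 1 (70.2nd percentile) and 6.25 in replicate 2 (39.4th percentile). In the top 25% of the list lay 246 of the 552 regions (44.6%) in replicate 1 and 31 (5.62%) in replicate 2. The 12 named by rank all kept their place in the set when lists of equal length were compared. After the chromosome 12 region described above came Chr1:39113398-39113601, with 18.6 and 35.1 in the WT control libraries, and Chr5:24443898-24444106, with 51.2 and 20.5. Both had a desiccation summit nearby, at 882 and 321 bp. The next pair did not. Chr12:6763001-6763218 had 14.5 and 19.6 in WT control, and the nearest WT desiccation summit was 188348 bp away. Chr7:1503679-1503895 had 17.7 and 17.4, with the nearest WT desiccation summit 166791 bp away. In H49, Chr12:6763001-6763218 was called in control replicate 2 alone (86.8), and Chr7:1503679-1503895 in control at 10.5 and 16.1 and not under desiccation.

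The remaining named control-only regions had −log10 p between 11.7 and 27.3 in both control lists. Chr3:4173000-4173202 had 12.9 and 15.4 in the WT control libraries, with the nearest WT desiccation summit 27834 bp away. Chr3:5907544-5907759 (12.1 and 17.6), Chr2:2557428-2557696 (11.7 and 14.7), Chr5:14639407-14639711 (12 and 13.8) and Chr10:19233140-19233421 (14.9 and 13.5) were likewise more than 10 kb from a desiccation summit and were called in H49 control replicate 2 only. Chr1:40690583-40690791 (16.9 and 15.4) was called in H49 control at 8.82 and 8.95 and not in H49 desiccation. Chr4:21842215-21842434 (27.3 and 13.2) was called in both H49 control libraries too, at 7.33 and 71.2, and had a WT desiccation summit 331 bp away.

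**Figure D2:**
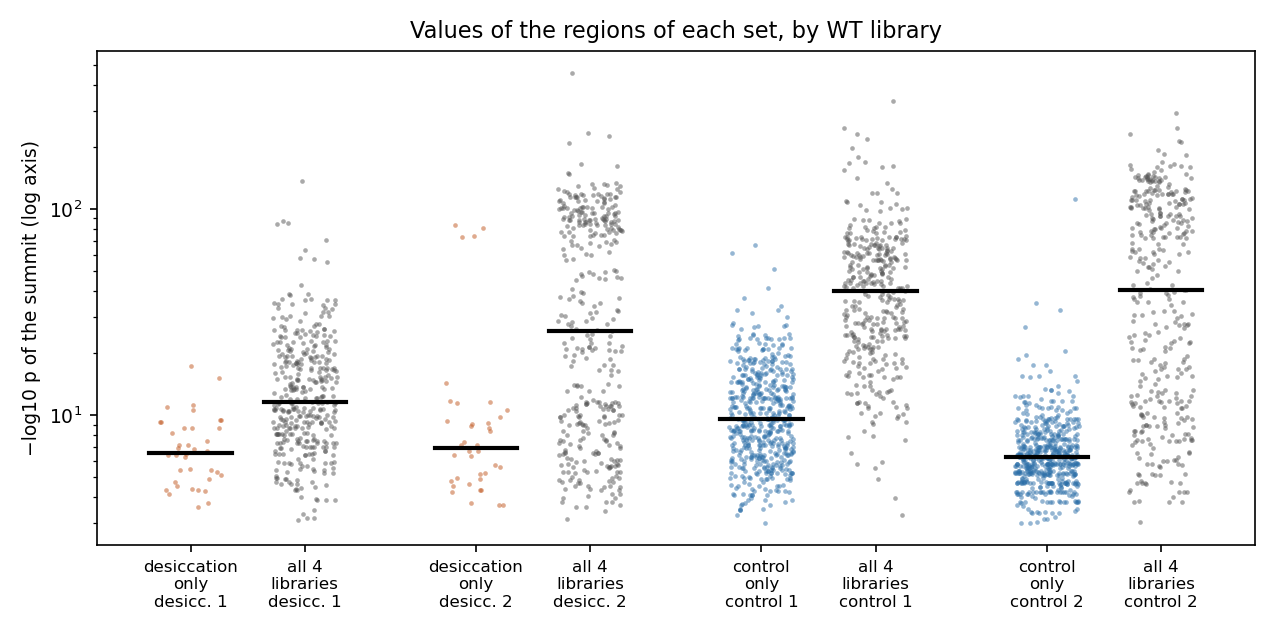
−log10 p of the regions of each set in each WT library that called them (vertical log axis), with 1 point per region and black lines at the medians; desicc. 1 is WT desiccation replicate 1, and values are not comparable between libraries. In every library the regions called in all 4 libraries (grey) had a higher median than the regions called under 1 treatment, such as 11.6 against 6.58 in WT desiccation replicate 1 and 40.5 against 6.25 in WT control replicate 2.

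The strongest sites were common to both treatments. Of the 515 regions called in both desiccation libraries, 373 (72.4%) were called in both control libraries, 104 in 1 and 38 in neither. Of the 1406 regions called in both control libraries, 373 (26.5%) were called in both desiccation libraries, 481 in 1 and 552 (39.3%) in neither. These 1406 regions were split into 4 parts of 25% by the lower of their percentiles in the 2 control lists. In the weakest part 218 of 352 (61.9%) had no desiccation call, in the next 209 of 351 (59.5%), then 120 of 351 (34.2%), and in the strongest part 5 of 352 (1.42%). Of these 5, 3 had a desiccation summit within 1000 bp, which left 2 of 352 strong control regions, on chromosomes 7 and 12, without one. The same parts of the 515 desiccation regions held 17 of 129, 17 of 129, 2 of 128 and 2 of 129 regions without a control call, from weakest to strongest. The part of list length and read depth in this pattern was not tested.

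**Figure D3:**
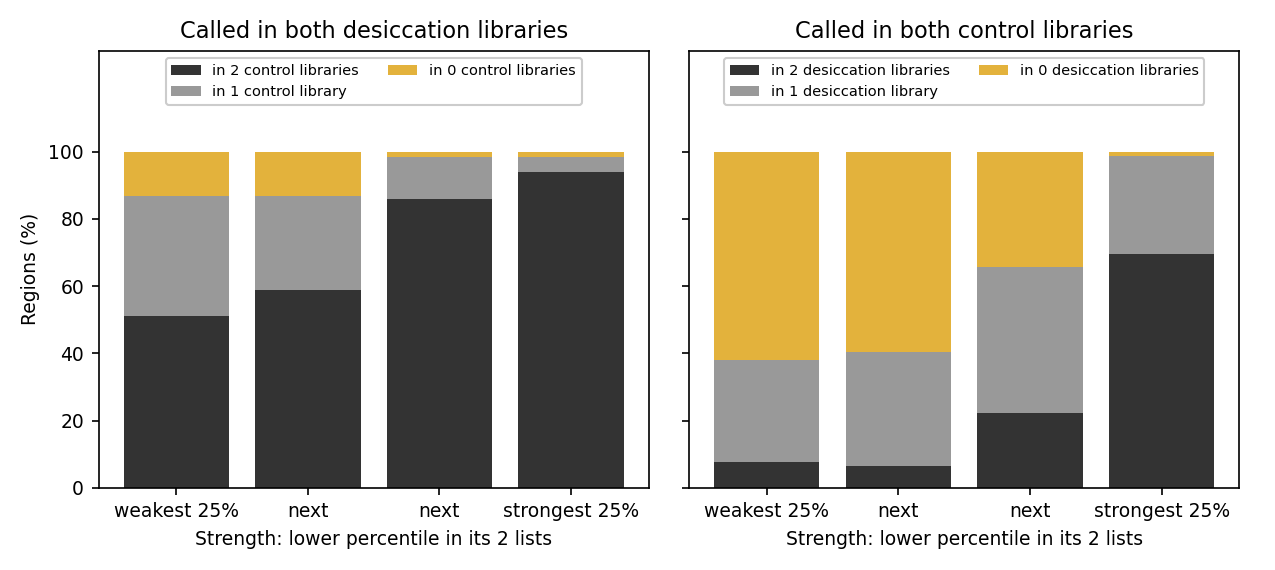
Share of regions (vertical axis, %) called in both desiccation libraries (left) or in both control libraries (right) that were called in 2, 1 or 0 libraries of the other treatment, by strength, in 4 parts of 25%. In the strongest part 93.8% of desiccation regions and 69.6% of control regions were called in both libraries of the other treatment, and regions with no such call made up 1.55% and 1.42%.

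First by rank of the 373 common regions was Chr3:5944471-5944700, with 137 and 456 in the WT desiccation libraries and 335 and 230 in the WT control libraries. Chr9:21917061-21917289 followed, with 84.7 and 209 under desiccation and 248 and 291 in control. Chr2:21093462-21093698 had 57.0 and 161 under desiccation and 230 and 246 in control, and Chr6:28400635-28400856 had 55.1 and 150 against 160 and 211. The next 8 in rank lay on chromosomes 2, 4, 5, 8, 11 and 12. All 12 ranked above the 98th percentile of each WT list and were called in all 4 H49 libraries. In regions with 1 summit per library (370 of 373), the summits of the treatments lay as close as those of replicates. The median distance was 26 to 33 bp over the 4 pairs of a desiccation and a control library, 33 bp between the desiccation libraries and 23 bp between the control libraries.

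Values of the common regions fell into an upper and a lower cloud in replicate 2 of each treatment, a split noticed after the values were plotted. At least 50 was reached by 148 of the 373 regions in WT desiccation replicate 2 and by 9 in replicate 1, against 179 in WT control replicate 2 and 143 in replicate 1. In both replicates numbered 2 at once it was reached by 138 regions, of which 131 (94.9%) were also called in all 4 H49 libraries. Of the other 235 common regions 117 (49.8%) were. Over the 373 regions Spearman's rho between libraries was 0.888 for desiccation replicate 2 with control replicate 2, the highest. It was 0.694 for desiccation replicate 1 with control replicate 1, the lowest. The 2 control libraries gave 0.821, the 2 desiccation libraries 0.716, and the pairs with different treatment and number 0.708 and 0.728. These values are a description across regions.

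Whether any common region changed its place between treatments was tested on ranks. Within each library the 373 regions were ranked by −log10 p, the ranks were turned into normal scores, and desiccation minus control was fitted with limma, without a replicate block. No region passed a Benjamini-Hochberg adjusted p of 0.05 (0 of 373, 0%), and 24 (6.43%) had an unadjusted p under 0.05. An alternative fit with a replicate block called 5 of 373, so the result depends on a pairing that the labels do not give. The values that follow are from the fit without a block. The smallest adjusted p was 0.126. It belonged to Chr3:1649527-1649859, with 8.14 and 9.49 in WT desiccation and 5.56 and 3.78 in WT control, a normal score difference of 1.88 ± 0.462 (SE). The same adjusted p was reached by Chr7:21618901-21619419, with 5.92 and 3.67 in WT desiccation and 89.4 and 11.7 in WT control, a difference of −2.12 ± 0.555 (SE). Both desiccation values of this region lay below both control values. With the 2172 strongest summits of each list it was the 1 region called of 319, at an adjusted limma p of 0.000949. Next, at an adjusted limma p of 0.285, Chr3:30407287-30407720 had 3.89 and 5.0 in WT desiccation and 43.9 and 17.2 in WT control. Among the 10 regions with the smallest p, 7 ranked higher under desiccation and 3 ranked lower. With 2 libraries a group this fit can miss changes in rank, so a region that did not pass was not shown to be unchanged.

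Libraries of the H49 line, which took no part in the choice of the sets, gave a separate reading. Control-only WT regions held an H49 summit in 14.1% and 11.1% of cases in the 2 H49 desiccation libraries, and in 38.8% and 37.5% in the 2 H49 control libraries. Over all 13119 WT regions the shares were 10.5% and 12% in H49 desiccation and 15.6% and 14.7% in H49 control. The control-only regions were thus found in each H49 control library at more than 2 times the share of all WT regions, and in each H49 desiccation library at a share close to it. Most of all WT regions (77.9%) were called in 1 library, so they are not matched to regions called in 2. Desiccation-only regions, also called in 2 libraries, stood at 31.6% and 23.7% in H49 desiccation and at 26.3% and 26.3% in H49 control. For control-only regions the mean shares were 12.6% ± 2.18 under desiccation and 38.1% ± 0.897 in control (SD, n = 2 each). The difference was −25.5 percentage points, desiccation minus control. The H49 control lists are also longer, at 4236 and 3380 summits against 2336 and 2359 in H49 desiccation. With the 2172 strongest summits of all 8 lists, control-only regions were found in 21.1% and 16.2% of cases in H49 desiccation and in 43.2% and 40.0% in H49 control. The groups did not overlap in either reading. In the full lists the H49 groups did not overlap over all WT regions or in the common regions either. No share over all WT regions was computed for the lists of equal length. With 1 WT library left out, its partner standing alone for the treatment, the difference for control-only regions was −25.5 and −21.0 points without WT desiccation replicates 1 and 2, and −7.06 and −6.18 points without WT control replicates 1 and 2. Of the 552 regions, 61 (11.1%) had a summit in each H49 control library and none in H49 desiccation, 6 (1.09%) showed the opposite, and 203 (36.8%) held no H49 summit. Over all WT regions the first 2 shares were 2.24% and 1.30%.

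In the desiccation-only regions the shares of the H49 libraries overlapped. They held an H49 summit in 31.6% and 23.7% of cases in H49 desiccation and in 26.3% and 26.3% in H49 control. The mean difference was 1.32 percentage points (27.6% ± 5.58 under desiccation and 26.3% in both control libraries, SD, n = 2 each). With 38 regions 1 region is worth more than the difference. Of the 38, 3 (7.89%) had a summit in each H49 desiccation library and none in H49 control, against 1.30% of all WT regions, and 1 (2.63%) showed the opposite, against 2.24%. Leaving out 1 WT library moved it in either direction, with 7.79 points without WT desiccation replicate 1, −0.04 without WT desiccation replicate 2, −12.5 without WT control replicate 1 and 0 without WT control replicate 2. Regions called in all 4 WT libraries were found again in 85.3% and 81.5% of cases in H49 desiccation and in 87.7% and 93.6% in H49 control, and 3 of the 373 were called in no H49 library. These shares are given per library and were not tested.

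**Figure D4:**
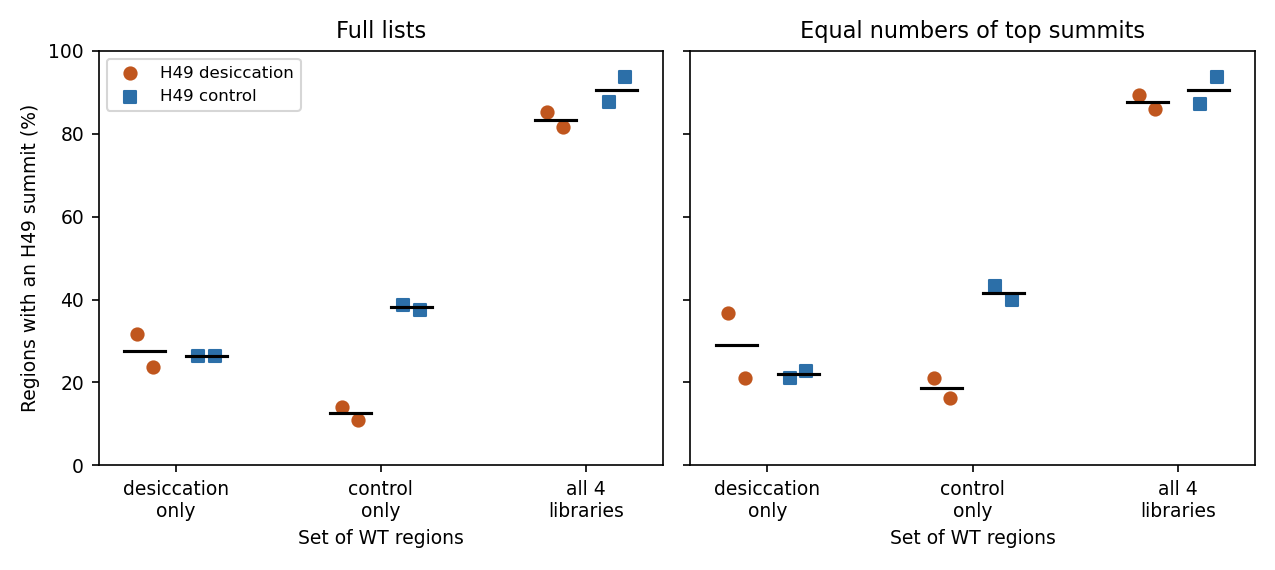
Share of each set of WT regions (horizontal axis) that held a summit of each H49 library (vertical axis, %), with orange circles for the 2 H49 desiccation and blue squares for the 2 H49 control libraries and black lines at the means, for full lists (left) and the 2172 strongest summits of each list (right). Control-only regions stood at 14.1% and 11.1% in H49 desiccation and at 38.8% and 37.5% in H49 control, while for desiccation-only regions the libraries overlapped.

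Distance to the other treatment also differed between the sets. From a desiccation-only region the nearest WT control summit was a median of 541 bp away, and 29 of 38 (76.3%) had one within 1000 bp. From a control-only region the nearest WT desiccation summit was a median of 5190 bp away, and 124 of 552 (22.5%) had one within 1000 bp. With the 2172 strongest summits of each list the difference was smaller, with 23 of 57 desiccation-only regions (40.4%) within 1000 bp of a control summit, at a median of 2516 bp, and 59 of 185 control-only regions (31.9%) within 1000 bp of a desiccation summit, at a median of 4845 bp. The full control lists hold more summits than the full desiccation lists, so distances in the full lists run to unequal targets. The part of list length in them was not tested. Measured to these unequal targets, regions called in a single library of the full lists showed the same order. Of those in desiccation replicate 1 alone and in desiccation replicate 2 alone, 49.3% and 42.4% lay within 1000 bp of a control summit, against 11.8% and 37.1% of those in control replicate 1 alone and control replicate 2 alone within 1000 bp of a desiccation summit. Within 300 bp, just past the merging distance, 8 of the 38 had a control summit. The desiccation-only regions nearest to a control summit were Chr3:10162434-10162689 at 208 bp, Chr2:25877843-25878066 at 219 bp and Chr3:3278385-3278625 at 267 bp. Among regions called in both desiccation libraries and at least 1 control library, the widest such gap bridged was 177 bp, in Chr1:33619190-33619708.

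**Figure D5:**
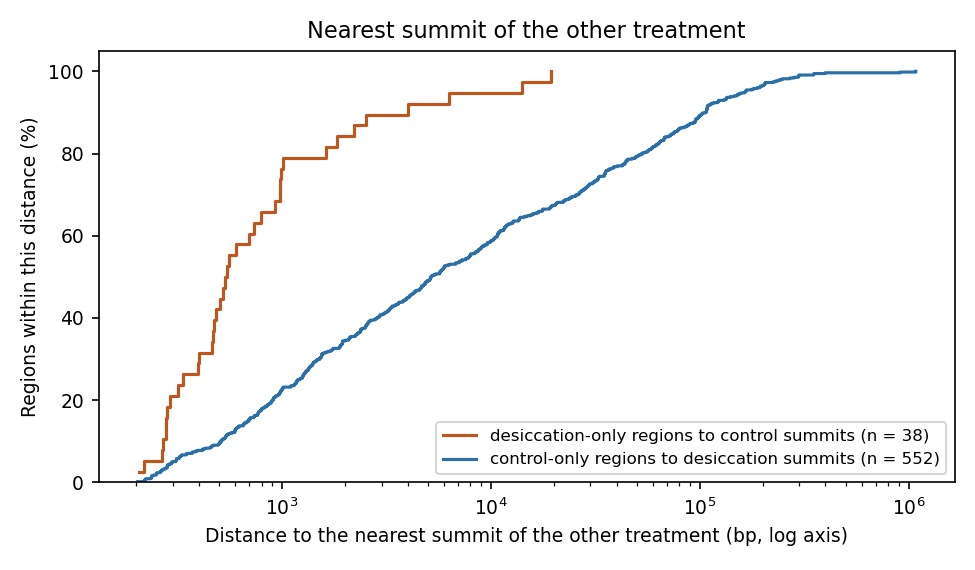
Cumulative share of regions (vertical axis, %) by distance to the nearest summit of the other treatment (horizontal log axis, bp), for 38 desiccation-only regions measured to WT control summits (orange) and 552 control-only regions measured to WT desiccation summits (blue). The medians were 541 bp and 5190 bp.

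Summits were unevenly crowded along the chromosomes, and the crowding differed between replicates. A bin of 100 kb was called crowded when its share of a list's summits averaged 0.5% or more, a limit set after the data were seen. In the 12 crowded bins lay 2.42% and 24.4% of the WT desiccation summits, and 1.58% and 12.6% of the WT control summits. The higher share of each treatment was that of replicate 2. The first of them, Chr10:10800001-10900000, held 0 and 102 summits of the desiccation lists and 11 and 72 of the control lists, and Chr4:9100001-9200000 held 0 and 60, and 2 and 65. These bins held 182 of the 429 regions (42.4%) shared by desiccation replicate 2 and control replicate 2 alone, against 2 of the 670 shared by the replicates numbered 1. They held 0 of the 38 desiccation-only regions, 7 of the 552 control-only regions and 43 of the 373 common regions (11.5%), and without them 38 and 545 regions of the 2 treatment sets were left.

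By chromosome, the common and the control-only regions stood furthest from each other on chromosomes 12 and 2. Chromosome 12 held 46 of the 373 common regions (12.3%) and 14 of the 552 control-only regions (2.54%), with 4.44% of all WT regions and 7.35% of the length. Of these 46 common regions, 14 lay in 1 crowded bin of 100 kb, Chr12:13300001-13400000, which held 0 control-only regions. The share of chromosome 12 thus rested in part on a cluster. Chromosome 2 held 30 common (8.04%) and 86 control-only regions (15.6%), with 13% of all WT regions. Chromosome 1 held 77 common (20.6%) and 95 control-only regions (17.2%), both close to its 18.1% of all WT regions. Neighbouring regions on a chromosome are not independent, and these shares were not tested.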

How the data were processed

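Per the series' design text, the authors filtered reads with NGS QC Toolkit, mapped them to MSU version 7 with Bowtie2 and called peaks with MACS2 (version 2.1.1.20160309, per the submitters' processing notes). Peaks were called per library, as each has its own deposited list. Whether inputs served as background, and whether the Bedops selection of confident peaks entered these lists, is not stated in the sources used. Inputs were not analysed here. The deposited value of a summit is a −log10 p-value, a unit read from the MACS2 summit format, lowest values near 3.00 and a threshold of 0.001 in the peak names.

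Summits on chromosomes 1 to 12 were merged with pandas 2.3.3 in Python 3.11.15; a region's value in a library is its highest summit. Ties at the limit of 2172 summits were broken by position. List lengths were compared with SciPy 1.17.1, and ranks with limma 3.58.1 (R 4.3.3), tested on simulated data first. As nothing ties libraries to separate plants, a p-value reflects the spread of these libraries, possibly technical. The rule picked the 12 regions of each set with the highest value of their lowest percentile among calling libraries. It also picked the 10 common regions with the smallest limma p. Not all of the common regions picked are named in the text. Other named regions were chosen with their values in view or serve as examples at a limit. Gene groups and motifs could not be used, since no gene positions or genome of this build were used here. The comparison, its sets and its rules were chosen with earlier results of these data known. Alternatives changed list length, value limits, merging distance, libraries and scaling.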

Additional observations from a re-analysis of the deposited data

Results flagged for a closer look

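Outside chromosomes 1 to 12, the WT desiccation lists held 1 and 21 summits on the sequences named ChrUn and ChrSy, and the WT control lists 3 and 10. This drew attention because these summits entered no comparison and the 21 in WT desiccation replicate 2 exceeded both control lists. WT desiccation replicate 1, with 1, lay below both. In each treatment replicate 2 held the larger number.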

How the results depend on the processing

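Desiccation-only regions numbered 3 among the 1000 strongest summits of each list, 2 in the upper 50% of each list and 14 at a merging distance of 1000 bp, against 38. Control-only regions numbered 185 with lists of equal length, 79 among the 1000 strongest and 262 in the upper 50%, against 552. Common regions numbered 182 and 203 in the last 2 settings, against 373. Leaving out 1 library, with the other library standing alone for its treatment, gave 73 to 1160 desiccation-only, 766 to 7628 control-only and 392 to 626 common regions, as a single library passes more regions than a pair; the highest desiccation-only and common counts came without WT desiccation replicate 2, and the highest control-only count without WT control replicate 2. Without the crowded bins, an alternative chosen after seeing the data, the counts were 38, 545 and 330. In each set 12 regions were picked by rank. Over these alternatives 2 to 12 stayed in the desiccation-only set, 6 to 12 in the control-only set and 12 in the common set. List length kept its direction, at a log2 difference between −1.95 and −0.39 with 1 library left out. The test of rank called 0 regions with 1 library left out, with percentile ranks, with centred log2 values and at 500 bp, 1 with lists of equal length and 5 with a replicate block; the cause was not tested. Under the block these were Chr7:21618901-21619419 and Chr1:41486898-41487155, lower under desiccation at an adjusted limma p of 0.000522, Chr3:30407287-30407720, lower at 0.0251, and Chr3:1649527-1649859 and Chr12:8655849-8656058, higher at 0.00251 and 0.038. That fit gave all of them the same SE, 0.435. Deviations of same-numbered libraries correlated at 0.282 over the common regions, and the labels do not say that a number pairs libraries. For H49 calls, the difference between desiccation and control was 7.02, −23.0 and −2.82 percentage points for the desiccation-only, control-only and common sets with equal lists, and −34.1 points for the control-only set with H49 summits within 500 bp. With 1 WT library left out, also chosen after seeing the data, it lay between −12.5 and 7.79 points for the desiccation-only set, −25.5 and −6.18 for the control-only set and −14.2 and −5.99 for the common set. Equal lists, also chosen after seeing the data for these values, moved the share of desiccation-only regions within 1000 bp of a control summit to 40.4% and the bins with more in each control list to 12. Read depth is unknown, so a missing summit is not an unbound site.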
